A study of Rattus norvegicus with 28 samples.

Results

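DARPP32, the protein encoded by Ppp1r1b, and 9 receptors for dopamine, serotonin and noradrenaline were followed in the rat spinal cord after contusion and after transplantation of neural progenitor cells (NPC). The 10 genes are Ppp1r1b, Drd2, Drd4, Htr1a, Htr2a, Htr2b, Htr2c, Htr7, Adra1a and Adra2a. They were taken by the gene name on the array, and all 10 were present among the 35469 features measured, on 16 probes and 43 spots. Ppp1r1b was chosen by its measured log2 levels along the time course of these samples, an early decrease followed by a rise past its starting level, so all levels and differences of the 10 genes along the time course are given as a description with no test.

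DARPP32 is a regulator of protein phosphatase 1. When phosphorylated by protein kinase A it inhibits the phosphatase, and when phosphorylated by Cdk5 it inhibits the kinase, so it carries signals from receptors that raise or lower cyclic AMP. It is best known from the projection neurons of the striatum, where dopamine receptors act on it. In the spinal cord, serotonin and noradrenaline come almost wholly from neurons of the brainstem and dopamine largely from the hypothalamus, through fibres that descend to receptors on spinal neurons and other cells. Among these receptors Drd2, Drd4, Htr1a and Adra2a couple mainly to inhibitory G proteins that lower cyclic AMP. Htr7 raises cyclic AMP, and Htr2a, Htr2b, Htr2c and Adra1a couple to Gq and phospholipase C.

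The tissue was the injured thoracic cord of adult female Sprague Dawley rats, without dura mater, and each of 7 groups had 4 arrays of single-dye Agilent type. T0 was the group before injury, called sham in the labels and uninjured in the study's methods, and T1, T2, T4 and T8 were taken 1, 2, 4 and 8 weeks after a severe contusion. T1_NPC received NPC immediately after the contusion and was taken at week 1, whereas T2_NPC received them at week 1 and was taken at week 2. The transplanted cells came from cords of adult rats that had themselves been injured, and the immunosuppressant FK-506 was part of the care after surgery. The study's methods list this care for all animals and an injection of medium free of cells for injured controls. Whether that injection was given to each rat of T1 and T2 is not given in the sources used here. Host and transplanted cells were both rat and were not separated in the tissue, and in such bulk samples fewer cells of a type and less RNA per cell cannot be told apart.

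The defining sequence of the DARPP32 measurement was 1 probe, shown first because every Ppp1r1b value rests on it. Coordinates are those of the array annotation, build rn4. The Ppp1r1b probe was placed at chr10:87129321-87130656 on the plus strand, a span of 1336 bases for a probe of 60 bases, so it is not contiguous in the genome. The capitals mark bases 30 to 48 of the probe, the 19 bases that pair with the reverse primer listed by the study for DARPP32 (aagtaagcttctgccccgc).
Ppp1r1b: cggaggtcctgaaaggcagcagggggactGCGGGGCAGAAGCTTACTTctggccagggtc

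The single probes for Drd2 (chr8:52706533-52706592, plus strand), Drd4 (chr1:201488595-201488654, plus strand), Htr1a (chr2:36435726-36435785, plus strand), Adra1a (chr15:46262923-46262982, plus strand) and Adra2a (no position in the annotation) are shown as the whole evidence for those genes.
Drd2: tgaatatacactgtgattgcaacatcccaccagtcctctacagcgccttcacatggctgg
Drd4: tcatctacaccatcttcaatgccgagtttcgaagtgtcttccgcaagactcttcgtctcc
Htr1a: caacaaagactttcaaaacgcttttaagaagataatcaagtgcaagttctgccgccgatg
Adra1a: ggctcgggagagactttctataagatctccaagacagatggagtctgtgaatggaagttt
Adra2a: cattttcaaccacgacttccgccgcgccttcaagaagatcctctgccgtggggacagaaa

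Htr2b, the gene with the largest differences from T0 among the 10, had 1 probe on the minus strand of chromosome 9, of which the first 30 bases (chr9:84840213-84840242) are shown.
Htr2b: tcaacgcacgggtatagtagttccgtatgg

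Htr2c had 3 probes, and they did not read the same strand. Probe A_43_P11553 lay at chrX:31015679-31015738 on the minus strand. Probe A_44_P792784 (minus strand) and probe A_44_P274913 (plus strand) overlapped by 45 bases at chrX:31013361-31013405, where they are the reverse complement of each other, as the first 30 bases of the overlap show.
Htr2c A_43_P11553: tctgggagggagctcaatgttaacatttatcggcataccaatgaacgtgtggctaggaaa
Htr2c A_44_P792784: gcactagcaataagttgaatgataatcgct
Htr2c A_44_P274913: agcgattatcattcaacttattgctagtgc

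Htr7 had 2 probes that differed in their size of change, of which A_44_P412178 (chr1:240145435-240145494, minus strand) carries the RefSeq accession of the gene.
Htr7 A_44_P412178: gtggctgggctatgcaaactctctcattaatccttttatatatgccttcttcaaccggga

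Across 120 pairs of the 16 probes, the longest run of bases shared between probes of different genes was 9 on the same strand and 8 as the reverse complement. Of the 16 probes, 11 carried RefSeq accessions, and all 11 were listed with the same symbol in the RefSeq gene table. The probes of Drd2, Htr1a and 1 of the 4 Htr2a probes were printed 10 times on each array and averaged.

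The 2 deposited forms of the data conflict, and results that use the disputed arrays depend on which is followed. The value table and the scanner outputs named a different sample for 16 of the 28 arrays, on 4 of 7 slides, and for all 16 the other sample was of another group. The value table was followed here. Under the samples named by the scanner outputs, limma called 1 feature against T0 in T2 (adjusted p under 0.05) and 0 in each of T1, T4 and T8. The 12 arrays on which both forms named the same sample comprised 2 of T0, 1 of T1, 2 of T2, 1 of T4, 2 of T8, all 4 of T2_NPC and 0 of T1_NPC. With these arrays alone, limma called 11901 features in T2 against T0 and 13314 in T8 against T0. Ppp1r1b then differed from T0 by -1.15, -0.45, 0.05 and 0.88 in order of time, where T1 and T4 rest on 1 array each. The arrays were scanned in 3 sessions. Session 1 held the 8 undisputed time-course arrays and session 2 the other 12 time-course arrays. Session 3 held the 8 transplant arrays, so transplantation and session cannot be told apart. Each transplant group was also alone on a slide of its own. Between 74.5% and 82.7% of spots were well above background on each array. T1_NPC replicate 2 stood apart from its group in Htr2b and in several lists of cell type markers. Among injured and transplanted arrays its neuron list was highest (12.28) and its fibroblast, microglia and ependymal lists were lowest (12.13, 10.58 and 7.04). Values without this array are given where they matter.

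The labelled tissue carried its defining markers. In T0 all 10 neuron markers, all 6 oligodendrocyte markers and all 6 astrocyte markers were well above background. After injury the composition of the sample moved with time, and these values stand beside every time course below. The mean log2 level of the 10 neuron markers had a median of 13.05 in T0 and of 11.40, 11.07, 11.36 and 11.18 in the injured groups in order of time. All 10 were lower than in T0 at each of the 4 time points, Snap25 with a log2 difference of -2.32 at T1 (limma, adjusted p = 5.24e-05). The fibroblast and meningeal list moved the other way, from 9.91 in T0 to 13.87, 13.93, 12.99 and 13.43, with 6 of 6 genes higher at each time point. The microglia and macrophage list did the same, from 8.80 to 11.88, 11.58, 11.43 and 11.29, also with 6 of 6 genes higher. Of all features 19.1%, 17.7%, 17.5% and 18.2% were called higher than in T0 in order of time. Called lower were 25.1%, 22.2%, 21.0% and 21.5%.

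**Figure D1:**
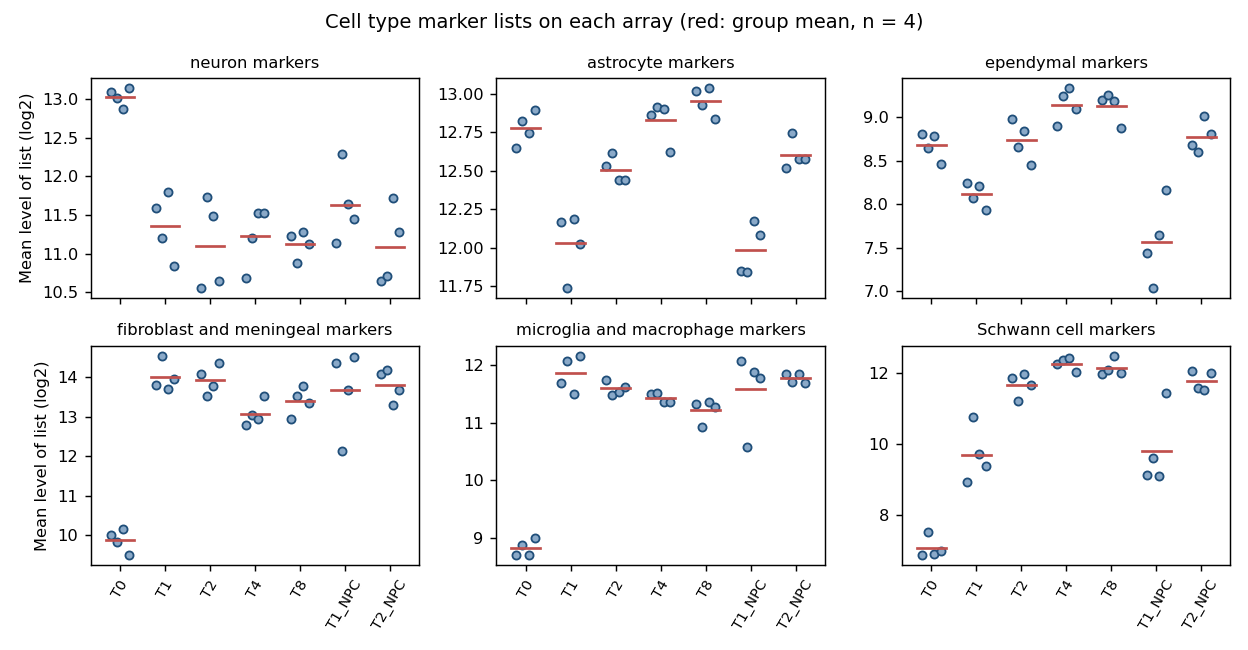
Mean log2 level of each list of cell type markers (y axis) on each array by group (x axis), with the group mean as a red line (n = 4). Neuron markers were lower and fibroblast and microglia markers higher in every injured group than in T0, and astrocyte and ependymal markers were lowest in T1 and T1_NPC.

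Ppp1r1b was lowest 1 week after injury and highest at 8 weeks. On the 4 arrays of T0 its log2 level was 8.13, 8.93, 8.57 and 9.25. At T1 it was 7.20, 7.17, 7.46 and 7.41, and no T1 array reached the lowest T0 array. At T2 the levels were 8.21, 8.02, 7.78 and 7.91, of which the highest lay just above the lowest T0 array. At T4 the arrays read 9.11, 8.99, 9.35 and 8.40, within and just above the T0 range. At T8 they read 9.53, 9.06, 9.35 and 9.41, so that 3 of 4 lay above every T0 array and the remaining one inside the T0 range. All 28 arrays were well above background for this probe.

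Expressed as differences from T0, Ppp1r1b stood at -1.41 log2 units at T1 (SE 0.20), a 2.65-fold lower level. The later differences were -0.74, 0.24 and 0.62 in order of time (SE 0.20 each), the last a 1.54-fold higher level. Between T1 and T8 the level differed by 2.03 log2 units, or 4.07-fold, and the groups did not overlap. Ordered by mean the groups were T8 (9.34 ± 0.20, SD, n = 4), T4 (8.96 ± 0.41), T0 (8.72 ± 0.48), T2_NPC (8.33 ± 0.22), T2 (7.98 ± 0.18), T1 (7.31 ± 0.15) and T1_NPC (7.05 ± 0.21). Of neighbours in that order only T2 and T1 had ranges that did not overlap.

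The upper part of this course was less separated than the lower part, and it differed by scan session. Within session 1 the difference from T0 was -1.15 at T1 and 0.88 at T8, and within session 2 it was -1.74 and 0.35. The 2 T0 arrays of session 1 (8.13 and 8.57) were the lower pair and those of session 2 (8.93 and 9.25) the upper pair. The step from T1 to T8 was 2.03 in session 1 and 2.09 in session 2. Under the samples named by the scanner outputs the difference from T0 was -0.05 at T1 and 0.35 at T8, and T8 against T1 was 0.41.

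**Figure D2:**
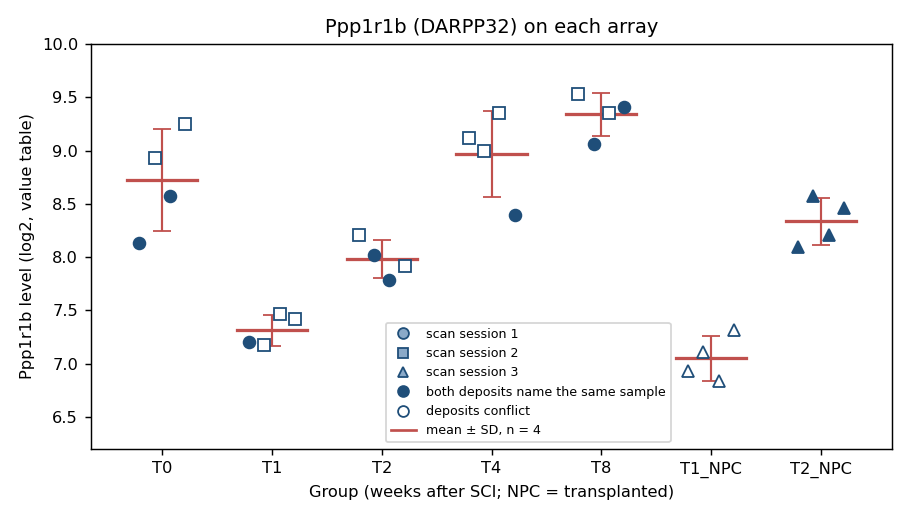
Log2 level of Ppp1r1b (y axis) on each array by group (x axis), with the mean and SD of 4 arrays in red, the scan session as the symbol and open symbols for arrays on which the 2 deposited forms name different samples. The 4 T1 arrays lie between 7.17 and 7.46, below all T0 arrays, and the T8 arrays between 9.06 and 9.53, overlapping the upper end of T0.

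Levels of other cell types moved alongside Ppp1r1b. The mean log2 level of 6 astrocyte markers had a median of 12.78 before injury and of 12.10, 12.49, 12.88 and 12.97 in the injured groups in order of time. In T1_NPC it was 11.97 and in T2_NPC 12.58. Of these 6, 4 were lower and 1 higher at T1 than in T0, and 3 were higher at T8 than at T1. Gjb6, a gap junction gene of astrocytes, was lower at T1 than in T0 (-2.59, limma, adjusted p = 1.29e-07) and higher by 2.17 at T8 against T1 (adjusted p = 1.49e-05). The mean of 4 ependymal markers followed a like order, with medians of 8.72, 8.14, 8.75, 9.17 and 9.19 along the time course. The 4 did not all move together. Against T0, 2 were lower at T1, 1 was higher and 1 lower at T2, and 2 were higher and 1 lower at T8. Between T8 and T1, 3 were higher. In T0, 3 of the 4 were well above background on all arrays. Of the 10 neuron markers limma called 0 between T8 and T1, with 0 at an unadjusted p under 0.05. Of all features 9.87% were called between T8 and T1, 5.45% higher. Against T0 the shares over all features were 44.1%, 40.0% and 39.7% at T1, T2 and T8, and these stand beside the counts of all 3 lists. The part of these cell types in the Ppp1r1b course was not tested.

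The 5 named genes whose level followed Ppp1r1b most closely over the 28 arrays, among 14547 features with a gene symbol, were Casc1 (Pearson r 0.930), Mro (0.926), Pygm (0.918), Prodh (0.909) and Gstm7 (0.909). Over the 20 time-course arrays alone the values were 0.945, 0.898, 0.882, 0.914 and 0.901. Each of the 5 was lower at T1 than in T0 by group mean, for example Pygm, a glycogen phosphorylase, at 11.57 in T0, 10.07 at T1 and 11.45 at T8. Prodh, the mitochondrial enzyme that begins proline breakdown, stood at 11.36, 10.62 and 11.83. These points share arrays and groups, so the correlations are a description. Of the 9 receptors Adra1a (r 0.64) and Adra2a (0.44) had the highest values, and the others lay between -0.41 for Htr2b and 0.19 for Drd2. The 5 named genes were picked as the highest of 14547 features, so nothing is read from the receptors lying below them.

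Most of the receptors were lower than in T0 at every time point. The ranges of the injured group and T0 did not overlap for 7 of the 10 genes at each time point, where this held for 41.1%, 37.0%, 37.5% and 38.6% of all features in order of time. Between T8 and T1 the ranges were apart for Ppp1r1b, Drd4 and Htr2b, as for 16.4% of all features. As the choice of genes used this time course, nothing is read from these counts. The median difference of the 10 genes from T0 was -1.19, -1.16, -1.09 and -1.20 in order of time, against -0.10, -0.05, -0.06 and -0.04 over all features. The sizes depend on the background correction: with normexp each difference of the 10 genes from T0 kept its sign but lay nearer 0. At T1, Drd4 then differed by -0.27 (-1.09 in the value table), Drd2 by -0.63 (-1.27) and Htr2c by -0.97 (-1.97), and at T8 Htr2a differed by -0.26 (-1.06).

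**Figure D3:**
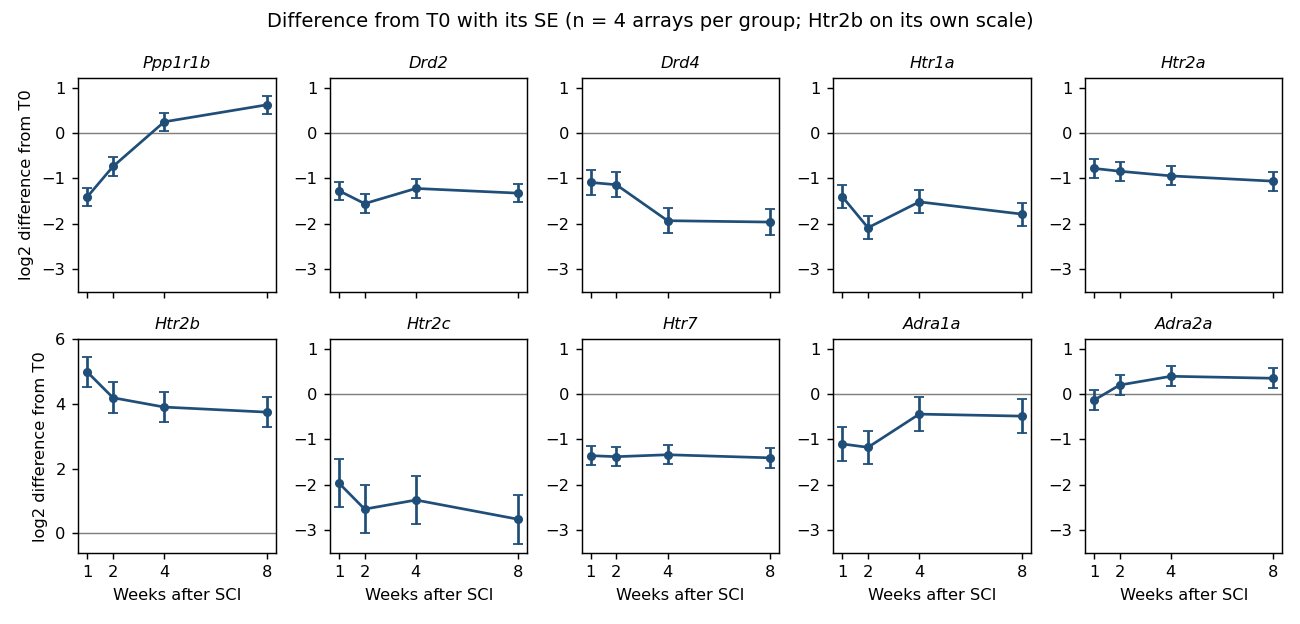
Log2 difference from T0 (y axis) of each of the 10 genes at 1, 2, 4 and 8 weeks after injury (x axis), with its SE from the fit (n = 4 arrays per group); Htr2b has its own scale. Ppp1r1b passes from -1.41 to 0.62, Htr2b stays between 3.75 and 4.99, and Drd2, Drd4, Htr1a, Htr2a, Htr2c and Htr7 stay below 0.

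Drd2, the inhibitory dopamine receptor on which much of striatal DARPP32 signalling turns, was lower at all 4 time points. Its log2 levels were 6.78, 7.49, 6.91 and 7.83 in T0 and 5.79, 5.93, 6.24 and 5.96 at T1. They were 5.44, 5.93, 5.83 and 5.58 at T2, and lay between 5.64 and 6.25 at T4 and between 5.70 and 6.17 at T8. No injured array reached the lowest T0 array. The differences from T0 were -1.27, -1.56, -1.22 and -1.33 (SE 0.20), between 2.34-fold and 2.94-fold lower, with T8 and T1 differing by -0.05. As for Ppp1r1b, the T0 arrays of session 2 were the higher pair, and at T2 the difference was -0.96 within session 1 and -2.15 within session 2.

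Drd4, another inhibitory dopamine receptor, lay further below T0 at the later time points. T0 read 5.85, 5.35, 5.63 and 5.69, T1 read 4.49, 4.62, 4.60 and 4.45, and T8 read 3.48, 3.14, 4.01 and 4.03. The 3 groups did not overlap. In order of time the differences from T0 were -1.09, -1.14, -1.93 and -1.96 (SE 0.28). The probe was well above background on all 4 arrays at T1 and T2, on 2 at T4 and on 1 at T8, so the later levels lie close to what the array can measure. Drd4 and Ppp1r1b thus stood in opposite order between T1 and T8, with a difference of -0.87 for Drd4.

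Htr1a, the inhibitory serotonin receptor of raphe neurons and many of their targets, could be measured only in T0, on 3 of 4 arrays. T0 levels were 4.51, 4.22, 3.93 and 4.79, and all other groups were not well above background on any array. Measured means were 2.95, 2.27, 2.84 and 2.57 in the injured groups in order of time. Set against the lowest signal that counted as well above background, or the probe's own where higher, Htr1a was at least 1.60-fold lower in T1, 1.41-fold in T2 and 1.63-fold in both T4 and T8. Such a bound takes the T0 mean over the mean, per array, of that lowest signal.

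Htr2c, the Gq-coupled serotonin receptor known for its role in motoneuron excitability, was lower at all time points on all 3 probes. Of these, A_44_P792784 and A_43_P11553 carry its RefSeq accession, and A_44_P274913 reads the opposite strand. The brightest Htr2c probe, A_44_P792784, read 12.66, 12.80, 12.80 and 12.59 in T0. It read 11.02, 10.36, 11.42 and 9.66 at T1, and 9.97, 9.62, 10.45 and 10.30 at T8. The T0 arrays lay close together, whereas those at T2 spread from 9.09 to 11.34. Differences from T0 on this probe were -2.10, -2.53, -2.33 and -2.63 in order of time (SE 0.52), between 4.29-fold and 6.19-fold lower. The other minus-strand probe, A_43_P11553, gave -1.66, -2.32, -2.17 and -2.51 (SE 0.47), but was well above background on 3, 1, 2 and 1 of the 4 arrays of these groups.

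The plus-strand probe A_44_P274913, whose sequence over the overlap is the reverse complement of A_44_P792784 as printed above, gave differences of -2.14, -2.76 and -2.51 at T1, T2 and T4 (SE 0.73), but was well above background on only 2, 1 and 2 of the 4 arrays there. At T8 it was not well above background on any array and was at least 4.88-fold lower than in T0. The probe carried the accession of an expressed sequence tag, and its values were included in the Htr2c mean because the array gives it that name. Averaged over the 3 probes, and so over both strands, Htr2c differed from T0 by -1.97, -2.54, -2.34 and -2.76 (SE 0.53).

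Htr7, which raises cyclic AMP, was lower by nearly the same amount at each time point. The mean of its 2 probes was 8.27, 8.32, 8.13 and 8.13 in T0 and 6.95, 6.69, 7.17 and 6.60 at T1. No injured array overlapped T0, and the differences were -1.36, -1.38, -1.34 and -1.41 (SE 0.21). The probes differed in size. A_44_P371317 gave -1.94, -2.19, -2.08 and -2.10 (SE 0.33), and A_44_P412178, the probe printed above, gave -0.78, -0.58, -0.60 and -0.71 (SE 0.26). Both were well above background on every array, so the mean of the gene lies between 2 unequal measurements.

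Htr2a, the Gq-coupled receptor also found on motoneurons, was measured by 4 probes that disagreed in size. Probe A_44_P508280 (chr15:55533559-55533618, plus strand) read 6.71, 6.95, 6.73 and 6.96 in T0, 5.82, 5.54, 5.95 and 4.95 at T1 and 4.60, 4.52, 5.06 and 4.56 at T8. Its differences from T0 were -1.27, -1.47, -1.79 and -2.15 (SE 0.26), with the largest at 8 weeks. Probe A_43_P11882, printed 10 times, gave -0.78, -0.36, -0.62 and -0.69 (SE 0.29). The remaining pair, A_44_P513101 and A_44_P513102, lay together at chr15:55462936-55463029, 69.1 kb from the others. One of them was well above background on 1 T0 array and the pair on no other array. With all 4 averaged, Htr2a differed from T0 by -0.78, -0.84, -0.95 and -1.06 (SE 0.21).

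**Figure D4:**
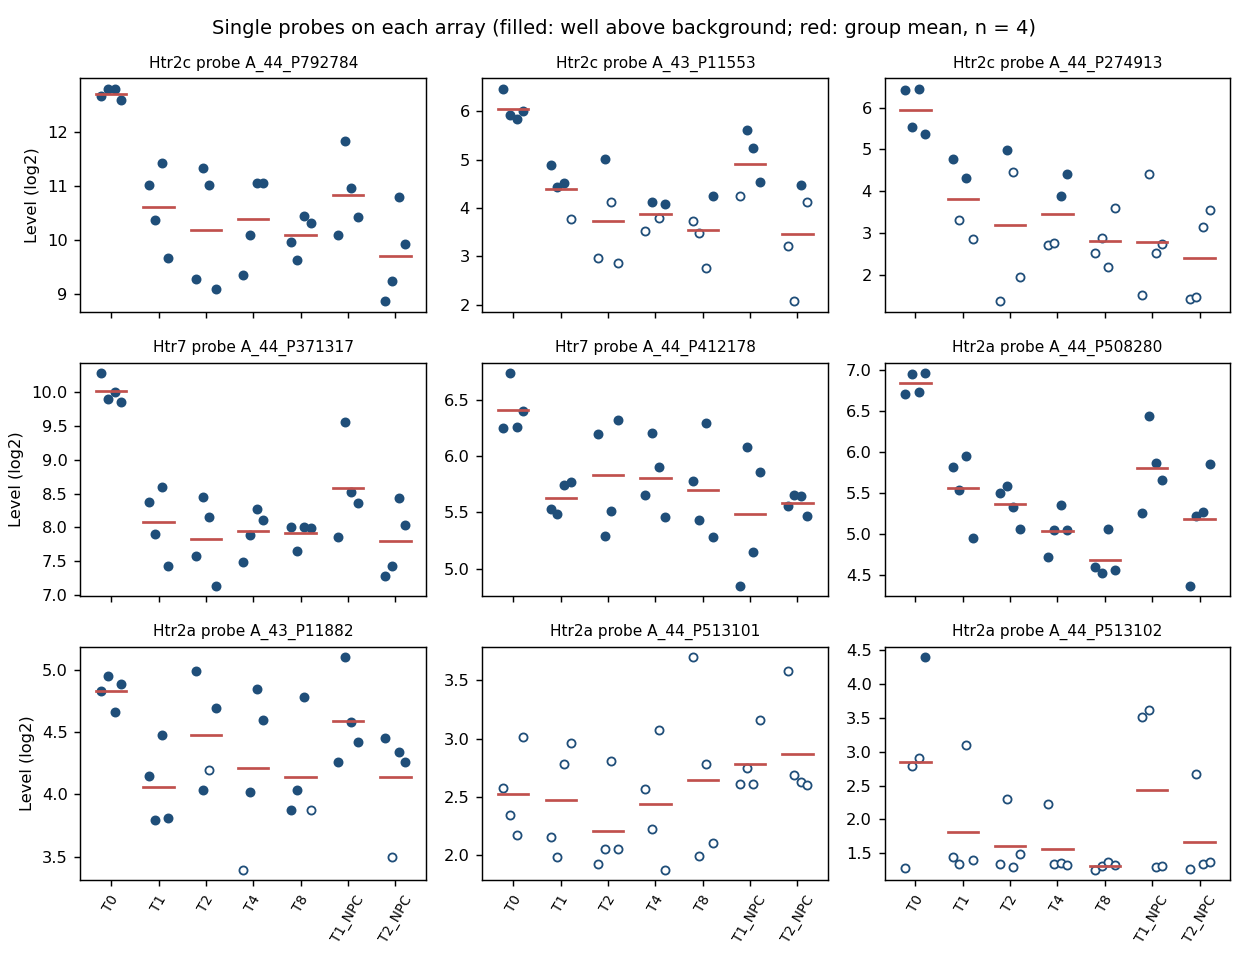
Log2 level (y axis) of each probe of Htr2c, Htr7 and Htr2a on each array by group (x axis), filled where well above background, with the group mean as a red line (n = 4). All 3 Htr2c probes, both Htr7 probes and A_44_P508280 of Htr2a were lower by mean in every injured group than in T0, while A_44_P513101 of Htr2a stayed below background throughout.

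Htr2b was the exception among the serotonin receptors, since it was far higher after injury. This Gq-coupled receptor is best known from heart valves, smooth muscle and fibroblasts. Its log2 levels were 7.57, 7.58, 7.15 and 7.37 in T0 and 12.15, 12.63, 12.15 and 12.71 at T1. At T2 they were 11.58, 11.32, 11.16 and 12.40. No array of these groups came near T0, and the same held later, with 11.45, 11.20, 11.29 and 11.38 on the T4 arrays and 11.41, 11.18, 11.11 and 10.98 on those of T8. The differences were 4.99, 4.20, 3.91 and 3.75 (SE 0.47), that is 31.8-fold, 18.3-fold, 15.0-fold and 13.5-fold higher.

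The fibroblast and meningeal markers moved in the same direction at all time points, as given above. Col3a1, a fibrillar collagen gene, was higher by 6.34 at T1 and 5.14 at T8 (limma, adjusted p = 3.90e-10 and 1.87e-08). On T1_NPC replicate 2 both were low: Htr2b was 9.42 where the other 3 arrays read 12.49 to 13.19, and the mean of the fibroblast list was 12.13, the lowest of any injured or transplanted array. The microglia and ependymal lists were also lowest there, at 10.58 and 7.04, and the neuron list was highest, at 12.28. The part of these cells in the Htr2b level was not tested.

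Of the adrenergic receptors, Adra2a did not separate from T0 at any time point. This inhibitory receptor, a target of clonidine, read 7.77, 8.23, 8.07 and 8.56 in T0, 7.76, 8.15, 7.88 and 8.28 at T1 and 8.86, 8.07, 8.76 and 8.32 at T8. The groups overlapped throughout, and the differences from T0 were -0.14, 0.20, 0.39 and 0.35 (SE 0.22). It was well above background on all 28 arrays.

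Adra1a, which couples to Gq, overlapped T0 at all time points because the T0 arrays themselves were far apart. They read 7.03, 4.76, 4.12 and 5.48, a spread wider than any difference between groups. At T1 the arrays read 3.92, 4.31, 4.56 and 4.20, and at T8 5.15, 4.63, 5.23 and 4.43. Differences from T0 were -1.10, -1.18, -0.44 and -0.49 (SE 0.37). Within session 1, which holds the T0 array at 7.03, T8 differed by -1.04, and within session 2 by 0.07. The probe was well above background on 3 of 4 arrays in T0, T1 and T2.

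The rule for choosing the genes used the time course and did not name the transplantation comparisons, which were tested. These comparisons share the T1 and T2 arrays with the time course, and the genes were chosen with earlier results of these data known. All transplant arrays were scanned in a session of their own, so neither comparison with an injured group can be told apart from one of session. T1_NPC and T2_NPC shared that session but were each alone on a slide. The comparisons and the difference between the 2 effects therefore cannot be told apart from slide. Ppp1r1b did not pass the test in either comparison. On T1_NPC arrays it read 6.93, 7.11, 6.84 and 7.32, overlapping T1, and the difference was -0.26 with a 95% interval of -0.68 to 0.15 (limma, adjusted p = 0.431). On T2_NPC arrays it read 8.09, 8.57, 8.21 and 8.46, overlapping T2, with a difference of 0.35 and an interval of -0.06 to 0.77 (adjusted p = 0.297). The difference between the 2 effects was -0.62, with an interval of -1.21 to -0.03, and did not pass the correction over all features (limma, adjusted p = 0.420). The intervals leave room for changes of up to 0.77 log2 units, so an equal level was not shown.

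Of the 10 genes, 1 was called in T1_NPC against T1, where 11.9% of all features were called, and 1 in T2_NPC against T2, where the share was 9.47%. In the difference between the 2 effects limma called 0 of 10, with 2 at an unadjusted p under 0.05 (Ppp1r1b and Adra1a), where 0.299% of all features were called. Both calls lay at the lower limit of measurement.

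Adra1a was the gene called in T1_NPC. It read 2.56, 3.38, 3.09 and 3.43 there, below every T1 array (ranges were apart for 16.3% of all features), with a difference of -1.13 (SE 0.37, limma, adjusted p = 0.0487). The probe was not well above background on any T1_NPC array and was so on 3 of 4 T1 arrays. The T1 mean of 4.25 lay below the T1_NPC bound of 4.33, so no fold is given. The call was lost on leaving out any 1 of the 4 T1 arrays or of T1_NPC replicates 1 to 3, with adjusted p between 0.0578 and 0.122, and with the replicate number as a block. In T2_NPC Adra1a read 4.43, 4.74, 4.88 and 4.90, all above the T2 arrays, but the difference of 0.57 did not pass the test (adjusted p = 0.370). The groups did not overlap for this 1 of 10 genes, as for 19.4% of all features.

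Htr1a was the gene called in T2_NPC, with a difference of 0.85 (SE 0.25, limma, adjusted p = 0.0365). The arrays read 2.43, 3.52, 3.61 and 2.92 in T2_NPC and 1.87, 2.68, 2.33 and 2.21 in T2. None of these 8 arrays was well above background for the probe and the groups overlapped, so no fold is given. The call was lost in 13 of 18 alternative settings, among them leaving out T2 replicate 1, 3 or 4 or T2_NPC replicate 2 or 3 (adjusted p between 0.0634 and 0.125). In T1_NPC the Htr1a difference was 0.23 (adjusted p = 0.609), again with no array above background.

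The other 8 genes passed neither test, with the widest bounds for Htr2c and Htr2b. Drd4 came nearest, with a difference of -0.74 in T2_NPC and an interval of -1.31 to -0.17 (limma, adjusted p = 0.0946, and 0.0295 without T2 replicate 4). Its probe was not well above background on any T2_NPC array and the groups overlapped, so no fold is given. Htr2a differed by 0.43 in T1_NPC (interval -0.01 to 0.86, adjusted p = 0.196), and by 0.24 without replicate 2 of that group (adjusted p = 0.544). This mean includes A_44_P513101 and A_44_P513102, which were not well above background on any array of T1 or T1_NPC. Its other probes, A_44_P508280 and A_43_P11882, gave 0.24 and 0.53 (limma over all probes, adjusted p = 0.592 and 0.236). Adra2a differed by 0.29 and 0.39 (adjusted p = 0.426 and 0.297), Drd2 by 0.27 and 0.25 (0.421 and 0.504), and Htr7 by 0.18 and -0.14 (0.651 and 0.749). Without T1_NPC replicate 2 the Htr7 difference in T1_NPC turned to -0.09 (limma, adjusted p = 0.841). Htr2c differed by -0.10 (interval -1.20 to 1.01) and -0.51 (interval -1.62 to 0.59), the former by -0.47 without T1_NPC replicate 2 (adjusted p = 0.679). Htr2b differed by -0.51 in T1_NPC (SE 0.47, adjusted p = 0.535) and by 0.32 without replicate 2 of that group (SE 0.24, adjusted p = 0.465), so the sign rests on this array. In T2_NPC it differed by -0.35 (adjusted p = 0.717).

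**Figure D5:**
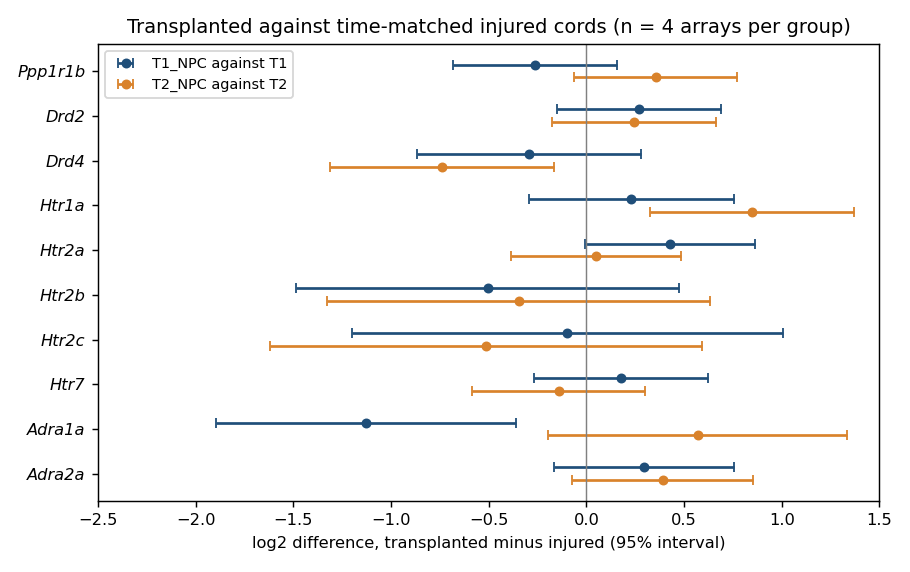
Log2 difference of each gene between a transplanted group and its time-matched injured group (x axis), with 95% intervals from the fit (n = 4 arrays per group), T1_NPC in blue and T2_NPC in orange. Intervals exclude 0 for Adra1a in T1_NPC and for Htr1a and Drd4 in T2_NPC, and the Drd4 difference was not called after adjustment over all features.

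The rest of the monoamine receptor families was taken whole and tested. Of 23 further dopamine, serotonin, adrenergic and histamine receptors on the array, 1 was higher and 10 lower in T1 (adjusted p under 0.05), where 44.1% of all features were called, 19.1% higher and 25.1% lower. In T2 the counts were 2 and 7 (40.0% of all features, 17.7% and 22.2%). They were 2 and 11 in T4 (38.5%, 17.5% and 21.0%), then 2 and 8 in T8 (39.7%, 18.2% and 21.5%). Their median difference from T0 was -0.40, -0.41, -0.44 and -0.23. Adra2c, an inhibitory receptor of noradrenergic terminals, differed by -2.01 at T1 and -1.77 at T4 (limma, adjusted p = 1.41e-06 and 1.12e-05). Hrh3, a presynaptic histamine receptor, differed by -1.90 at T8 (adjusted p = 9.44e-07). Htr1d was well above background on all T0 arrays and at most 1 array at each time point, and at T4, where no array measured it, it was at least 4.36-fold lower (adjusted p = 0.000560).

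Between T8 and T1 only Adra1d and Adra1b were called of the 23, higher by 0.87 and 0.64 (adjusted p = 0.00397 and 0.00437), where 9.87% of all features were called, 5.45% higher and 4.42% lower. With transplantation, 1 was higher and 2 lower of the 23 in T1_NPC, and 1 higher in T2_NPC. Of all features 11.9% and 9.47% were called there. Adra2b was higher by 0.66 and Htr3b lower (-0.64) in T1_NPC (adjusted p = 0.0240 and 0.0112), and Hrh1 was higher by 1.17 in T2_NPC (adjusted p = 0.0405). With only the compared groups fitted, 0 of the 23 were called in T1_NPC. With T2 replicate 2 or 3 or T2_NPC replicate 1, 2 or 4 left out, 0 of the 23 were called in T2_NPC. Htr1f was also called in T1_NPC, but no array of either group was well above background.

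Genes that make, pack and break down monoamines were called in both directions, about as often as all features. Of 15 on the array, 3 were higher and 4 lower at T1, T2 and T4, and 2 and 4 at T8, with medians between -0.08 and -0.02. Of all features 44.1%, 40.0%, 38.5% and 39.7% were called in the same order, and the same shares stand beside the lists that follow. Ddc, the decarboxylase that makes dopamine and serotonin, differed by -2.01 at T1 and -1.32 at T8 (limma, adjusted p = 2.83e-07 and 7.77e-05). Tph2, the serotonin synthesis enzyme of neurons, differed by -2.44 at T1 and -3.34 at T8 (adjusted p = 0.00413 and 0.000251), measured on 3 and 2 of 4 arrays. Gch1, which begins synthesis of the cofactor of the monoamine-producing hydroxylases and is also induced in macrophages, was higher by 2.42 at T2, 2.99 at T4 and 2.50 at T8 (adjusted p = 2.20e-10, 6.51e-12 and 1.43e-10). Slc18a2, the vesicular monoamine transporter, was higher by 2.70 at T1 (adjusted p = 5.30e-05) and differed by -2.10 between T8 and T1 (adjusted p = 0.00432).

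Among 23 kinase and phosphatase genes of the DARPP32 pathway, most of those called were lower. At T1, 3 were higher and 11 lower, and at T8, 3 and 12, with medians of -0.35 and -0.37. Prkar1b, a regulatory subunit of protein kinase A enriched in neurons, differed from T0 by -1.56 at T1 and -1.98 at T8 (limma, adjusted p = 0.00110 and 0.000109). Ppp3ca, the calcineurin subunit that removes phosphate from DARPP32, differed from T0 by -1.06 at T1 and -1.18 at T8 (adjusted p = 2.01e-06 and 5.45e-07). Against the time-matched injured groups Ppp3ca differed by -0.49 in T1_NPC and -0.58 in T2_NPC (adjusted p = 0.0289 and 0.0136). Ppp2ca, a catalytic subunit of protein phosphatase 2A, was higher by 0.51 in T1_NPC and 0.52 in T2_NPC (adjusted p = 0.000519 and 0.000589). Of the 23 genes, 2 were higher and 1 lower in T1_NPC, and 2 and 2 in T2_NPC. Of all features 11.9% and 9.47% were called in these comparisons. Transplanted and injured groups were scanned in different sessions, so these differences cannot be told apart from session.

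The list also held 2 other genes of the Ppp1r1 family. Ppp1r1c differed from T0 by -1.31 at T1 and -1.39 at T8 (adjusted p = 3.81e-05 and 2.13e-05). Ppp1r1a, inhibitor 1 of the same phosphatase, was higher at T8 than at T1 by 1.86, or 3.63-fold (adjusted p = 5.37e-07).

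G proteins and other coupling genes were mostly lower. Of 20, 5 were higher and 11 lower at T1 and 4 and 11 at T8, with medians of -0.56 and -0.68. Gnai1, an inhibitory G protein subunit, differed from T0 by -2.04 at T1 and -1.76 at T8 (limma, adjusted p = 4.74e-08 and 5.15e-07). Gnal, the stimulatory subunit that striatal dopamine receptors use, differed by -1.61 at T2 and -1.48 at T8 (adjusted p = 3.97e-05 and 0.000102). Plcb4, a phospholipase C downstream of Gq, differed by -1.42 at T1 (adjusted p = 1.87e-06). Against the time-matched injured groups Plcb4 differed by -0.92 in T1_NPC and -0.87 in T2_NPC (adjusted p = 0.00302 and 0.00575). Gna11, a subunit of the Gq class, was higher by 0.74 and 0.82 in the same comparisons (adjusted p = 0.00158 and 0.000823). Of the 20 genes, 3 were higher and 1 lower in T1_NPC, and 1 and 1 in T2_NPC. The shares over all features were 11.9% and 9.47%. As above, these differences cannot be told apart from scan session.

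Genes that accompany DARPP32 in striatal projection neurons were mostly lower where called. Of 11 on the array, 1 was higher and 5 lower at T1, and 4 and 6 at T8. Rasd2 differed by -1.60 at T1 and -1.75 at T8 (limma, adjusted p = 2.93e-05 and 1.12e-05). Tac1, the precursor of substance P, differed by -1.43 and -1.64 (adjusted p = 0.000290 and 6.84e-05). Between T8 and T1 only Foxp2, a forkhead transcription factor, was called of the 11, higher by 1.77 (adjusted p = 0.00194). Penk, the enkephalin precursor, was the 1 gene of the list called with transplantation. It was higher by 0.73 in T2_NPC (adjusted p = 0.0168), where 9.47% of all features were called.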

How the data were processed

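Gene expression was measured on 28 single-dye arrays, 4 for each of 7 groups. The authors deposited scanner outputs with the intensity of each spot (Agilent Feature Extraction 10.7.1.1, background-subtracted, not normalized between arrays) and a value table of log2 values, quantile normalized between arrays by the authors. The value table was the main source. The scanner outputs, matched to its columns by rank order (Spearman coefficient of 1 for each match and at most 0.993 for the next), gave slide, session and background flags. A probe counted as well above background on an array where at least a fraction of 0.5 of its spots was flagged so. No deposited column was left without a sample.

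Control spots (1639) were left out, and 43379 spots were averaged to 41012 probes and 35469 features by gene name, 4498 of them from several probes. With limma 3.58.1 in R 4.3.3 a mean per group was fitted to all 28 arrays with empirical Bayes moderation (2.26 prior degrees of freedom), and p-values were adjusted by Benjamini-Hochberg over all features at a threshold of 0.05. Levels are set only within a probe or gene, and the number of arrays limits the precision. p-values measure the spread between samples labelled as replicates. On simulated data with 200 changed features, the T1 against T0 comparison found 49% of those changed by 1 log2 unit and 90% of those changed by 2, and 6.08% of its calls were false. For T1_NPC against T1 the values were 47%, 90% and 4.86%. In the measured data 44.1% of all features were called in T1 against T0 and 11.9% in T1_NPC against T1. Recovery with such shares of features called was not tested.

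The 10 genes and all gene lists were chosen with earlier results of these data known. Beyond the 10 genes, up to 3 called genes with the largest difference were eligible for naming from each list and comparison (up to 2 for cell type markers), and the 5 features most correlated with Ppp1r1b. The values of 1 eligible gene are not reported here. Alternatives were the scanner outputs under matched and under deposited samples, undisputed arrays, 75th percentile scaling, normexp (offset 50, on median signals in place of the mean), single and brightest probes, a filter on dim probes, replicate, slide and session blocks, fewer groups in the fit, other moderation, and each array left out in turn. Sequences and rn4 positions come from the array annotation. Python 3.11.15, pandas 2.3.3, NumPy 2.4.6, SciPy 1.17.1, matplotlib 3.10.9 and the R package data.table (version 1.17.8) were used.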

Additional observations from a re-analysis of the deposited data

Results flagged for a closer look

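In 8 of 133 groups of 4 arrays examined over the 10 genes and the probes of Htr2a, Htr2c and Htr7, 1 array lay far from the other 3, its gap to the nearest exceeding Dixon's critical share of the whole range. Chance gives this in about 1 of 20 groups. Htr2a at T4 read 3.66 on replicate 3 against 3.16 to 3.23 on the others. Htr2a probe A_44_P508280 at T8 read 5.06 on replicate 3 against 4.52 to 4.60. Htr7 probe A_44_P371317 at T8 read 7.65 on replicate 2, the lowest, where the others all read 8.00.

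The other 5 were on the Htr2a probes A_44_P513101 and A_44_P513102, and in none of them was the array well above background. A_44_P513101 read 2.81 on T2 replicate 3 and 3.58 on T2_NPC replicate 1. A_44_P513102 read 3.10 on T1 replicate 3, 2.22 on T4 replicate 1 and 2.67 on T2_NPC replicate 2.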

How the results depend on the processing

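The largest limit is which sample an array belongs to. Under the samples named by the scanner outputs Ppp1r1b differed from T0 by -0.053 at T1, -0.26 at T2 and -0.48 at T4, T8 against T1 was 0.41, and differences that turned sign included, beside Ppp1r1b at T4, Htr2a at T1 (0.027), Drd4 at T2 (0.024), Htr2b and Adra2a for T8 against T1 (0.51 and -0.0022), Adra1a in T1_NPC (0.52) and Htr1a in T2_NPC (-0.046). There limma called 0 of the 10 genes in either transplantation comparison (0 and 3 at an unadjusted p under 0.05) and 0 of the 23 other receptors in every comparison (between 0 and 6 at an unadjusted p under 0.05), and of all features 0 for T8 against T1, 0 for T1_NPC, 43 for T2_NPC and 4 for the difference between transplantation effects, against 3501, 4225, 3359 and 106. With undisputed arrays alone, 7 other receptors were called at T1, 6 at T4 and 3 in T2_NPC, and 1363 features for T8 against T1 and 7399 for T2_NPC. Normexp gave Ppp1r1b -1.03 at T1 and 1.51 for T8 against T1, 0 of the 10 genes in T1_NPC and in T2_NPC (0 at an unadjusted p under 0.05 in both), 2 other receptors in T2_NPC and 50 features for the difference between effects. Scaling to the 75th percentile moved the median of all features from -0.10 to -0.28 at T1, from -0.06 to -0.16 at T4, from 0.00 to 0.16 for T8 against T1 and from -0.01 to 0.11 in T1_NPC; it called 2 of the 10 genes (Htr1a and Htr2a, not Adra1a), 5 other receptors and 7382 features in T1_NPC, 0 of the 10 genes in T2_NPC (2 at an unadjusted p under 0.05), 4 other receptors for T8 against T1 and 1974 features for the difference between effects. With only the compared groups, 0 of the 10 genes were called in T2_NPC (4 at an unadjusted p under 0.05), 0 other receptors (6) and 1223 features in T1_NPC, and 1 of the 10 genes, Adra1a, for the difference between effects (67 features). Slide as a random block gave 0 of the 10 genes in T1_NPC and T2_NPC (1 and 2 at an unadjusted p under 0.05), 0 other receptors in T2_NPC (3) and 2236, 1623 and 40 features for T1_NPC, T2_NPC and the difference between effects. Session as a block gave 6119 features for T8 against T1 and 298 for the difference between effects. With dim probes left out, 27778 features were tested. In that setting 5 other receptors were called in T1_NPC and 62 features for the difference between effects. Of the 10 genes 0 were called in T2_NPC (1 at an unadjusted p under 0.05). Matched scanner outputs and trended robust moderation each gave 0 of the 10 genes in T2_NPC (2 at an unadjusted p under 0.05 in both). Replicate numbers did not pair the arrays (correlation of deviations between -0.34 and 0.27), and the replicate block gave 0 of the 10 genes in T1_NPC (1 at an unadjusted p under 0.05; Adra1a adjusted p = 0.0676) and 0 other receptors in T2_NPC (3). Leaving out 1 array gave 0 to 1 of the 10 genes in each transplantation comparison, 2 to 6 other receptors in T1_NPC (6 without T1_NPC replicate 1) and 0 to 1 in T2_NPC, 1899 (without T2_NPC replicate 2) to 3409 features in T2_NPC, 53 (without T2 replicate 3) to 236 (without T2 replicate 2) for the difference between effects, and for Ppp1r1b -1.60 to -1.23 at T1 and 1.96 to 2.12 for T8 against T1. The single probe A_44_P513101 turned Htr2a at T8 to 0.12. The causes were not tested.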
